A study of Drosophila melanogaster with 2 samples.

Results

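The regions described here are weak peaks from an experiment on CG12744 binding that were found again in both replicates and lay away from gene starts. Some of them may be background. They were selected on their deposited signal, on the match between replicates and on distance, so these 3 measures are given as a description. A region was a peak of the pooled list whose signal was below 68.4, the lowest signal of the authors' thresholded list. Its summit, the highest point of the peak, had a summit within 100 bp in the list of each replicate and lay more than 500 bp from every annotated start site. Chromosome 4 was left out. The rule chose 4887 of the 30000 pooled peaks.

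The peaks come from chromatin immunoprecipitation and sequencing (ChIP-seq), in which DNA bound to a protein is pulled down with an antibody and sequenced. The antibody was against green fluorescent protein (GFP), and the flies carried a transgene for CG12744 with GFP at its C-terminal end. Whole Drosophila melanogaster embryos aged 0 to 24 h, male and female pooled, gave 1 group with 2 biological replicates, numbered 2 and 4. No other genotype, treatment or time was measured, so there is no comparison between conditions. Whole embryos of this age range mix all stages and tissues, so weak binding in many cells and strong binding in few cells cannot be told apart. The signal of a peak is that of the authors' peak caller, its scale is not stated, and the depth of the libraries is unknown.

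In flies, much of the sequence that controls when and where a developmental gene is read lies in introns and between genes. Transcription factors find such sites through short DNA motifs. GATA factors act in gut, fat body and blood cells, and forkhead factors act in gut, salivary gland and mesoderm. Peaks below a reproducibility threshold can hold sites bound weakly or in few cells as well as background.

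Among the motifs called higher at these summits, CACTG was in the most windows. Of the regions with a copy, 8 are shown to let its surroundings be read: those with the best worse rank of both replicates, leaving out 1 chromosome arm. Each line gives 30 bases of the dm6 genome, 5′ to 3′ on the strand that reads CACTG, which is in capitals.

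Between genes, downstream of Rilpl, chrX:1399778-1399807, minus strand: aacgcatcgcgccCACTGcggccgcagtgc
Intron of tkv, chr2L:5225765-5225794, minus strand: ctatttggttcgcCACTGttcgaaatattc
Intron of E2f1, chr3R:21627998-21628027, minus strand: tgacaggtagacaCACTGcgaaaaacgttg
Intron of Mad, chr2L:3158710-3158739, plus strand: ggagctgggcatCACTGgcggcaacggttc
Intron of kirre, chrX:3025775-3025804, minus strand: tcaaatcaaggggCACTGagaaataatgtc
Coding exon within the annotated spans of ND-15 and CG4822, chr2L:118019-118048, plus strand: ctcagacggtacCACTGgttgttgtactcc
Intron of Evi5, chrX:11451271-11451300, plus strand: ttatcgggcattCACTGtgccccgaaatac
Intron of Ptp10D, chrX:11629225-11629254, minus strand: tttcacaaaacgcCACTGggagaaaaggaa

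The receptor gene tkv encodes a type I receptor for the ligand Dpp, and Mad encodes the transcription factor that carries its signal to the nucleus. At the tkv summit (chr2L:5225860) the signal was 36.6 in replicate 2 and 29.7 in replicate 4, and at the Mad summit (chr2L:3158721) 35.7 and 30.6. The summit in E2f1 (chr3R:21628010), a gene for a cell cycle transcription factor, had 35.7 and 31.9. The CACTG copies lay 3 bp from the summit in Mad and 81 bp from it in tkv. Several of the 8 sequences have a run of A a few bases after CACTG, a feature that was counted over all regions.

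The weak reproducible regions were a minority of the weak peaks away from gene starts. Of 18481 such weak peaks, 4887 (26.4%) were found in both replicates, 10879 in 1 replicate and 2715 in neither. The share found in both fell with rank in the pooled list. It was 83.6% for ranks 2759 to 5000, 67.2% for ranks 5001 to 10000, 27.0% for ranks 10001 to 20000 and 2.97% for ranks 20001 to 30000. The pooled list was derived from the same replicates, and each replicate list ends at a lowest signal. This fall is therefore partly built in, and it is not an independent measure of reproducibility. Pooled signals of the regions ran from 17.5 to 68.4 with a median of 35.1. The median of the deposited −log10 q value was 0.963.

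Within each replicate the regions were of middle rank. Their signals ran from 9.59 to 59.5 in replicate 2, with a median of 16.9, and from 10.4 to 55.9 in replicate 4, with a median of 16.7. The median rank was 12674 of 30000 in replicate 2 and 11734 in replicate 4. Taking as many of the highest peaks of replicate 2 as the thresholded list holds, 2758, reached 2.07% of the regions. In replicate 4 the same cut reached 184 regions (3.77%). No region was among them in both replicates, and 4602 regions (94.2%) were in neither. The pooled list was derived from both replicates and the rule caps its signal. Few or no regions among the highest of both thus follows largely from the rule. Across the regions the 2 signals had a Spearman rho of 0.347, over a range that the rule restricts. The replicate summits lay a median of 38 bp apart, within 20 bp of each other at 1622 regions (33.2%) and over 100 bp apart at 346.

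**Figure D1:**
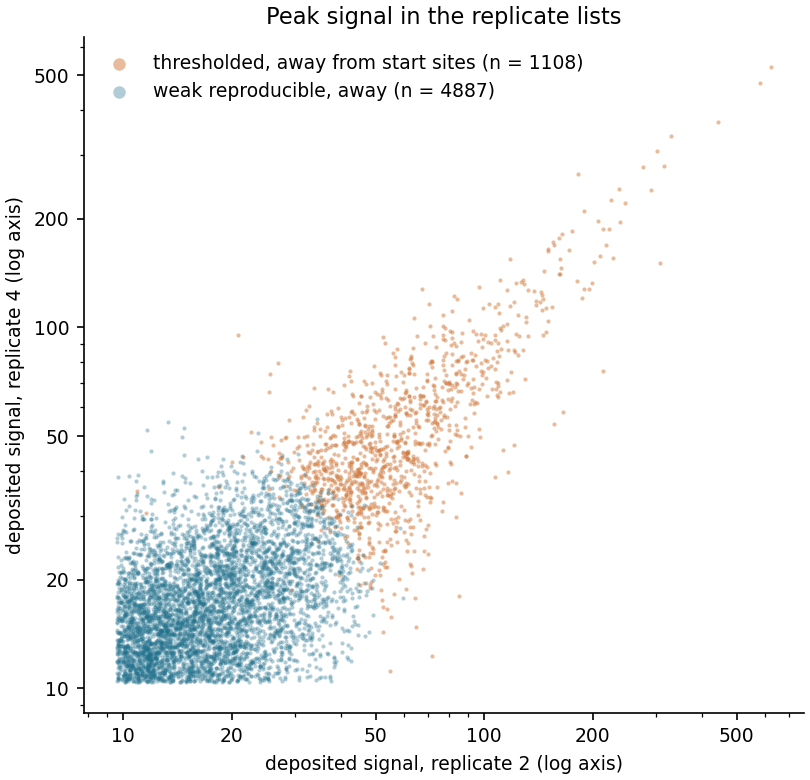
Deposited signal of each peak in replicate 2 (horizontal, log axis) and replicate 4 (vertical, log axis); a point is a peak found in both replicate lists. The 4887 weak reproducible regions form a cloud with medians of 16.9 and 16.7, below the 1108 thresholded peaks away from start sites.

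Regions with the best worse-of-both replicate rank lay in introns and between genes. The first was in an intron of apt, a transcription factor gene (summit 23577505 of 2R), with a signal of 39.3 and rank 2777 in replicate 2 and a signal of 33.5 and rank 2632 in replicate 4. The second lay between genes on X (summit 1399827), 6773 bp from the start of Rilpl, with ranks 2005 and 2847. The third was in an intron of pnt (3R, summit 23332914), which encodes an ETS factor of receptor tyrosine kinase signalling, with ranks 2312 and 2883. Others lay in introns of larp and shep, both genes for RNA-binding proteins, and of bun, which encodes a TSC22-type transcription regulator. In larp (3R, summit 28329480) the ranks were 3147 and 2368, and a thresholded summit lay 203 bp away. In shep (3L, summit 5182373) the signals were 39.8 in replicate 2 and 30.4 in replicate 4, and in bun (2L, summit 12535918) they were 42.7 and 30.2. The remaining 4 of these 10 lay between genes, at 12004555 on 2L (2289 bp from the start of Hacd1), 23712657 on 2R, 25652297 on 3R and 8860069 on 2L. Their signals were between 36.9 and 42.0 in replicate 2 and between 30.8 and 34.9 in replicate 4.

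The edge of the signal threshold separated peaks that were alike. The 3 regions nearest to it had pooled signals of 68.4, 68.4 and 68.3, at 19880492 of 3R, 17461323 of 2R and 6920202 of 3R. The last is in Antp, a Hox gene. The nearest peaks above the threshold had 68.4, 68.5 and 68.5. On both sides replicates differed: the Antp region had signal 21.4 in replicate 2 and 44.0 in replicate 4, and the thresholded peak at 14272633 of 3L had 52.6 and 16.8. There were 20 regions within 10 bp of the distance limit from start sites, and 23 weak reproducible peaks within 10 bp on its other side. The larger of the distances to the replicate summits was within 10 bp of its limit of 100 bp at 293 regions, and as close to it on the other side at 239 weak peaks left out.

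Most regions lay in introns, and few in coding exons. Introns held 3055 regions (62.5%, exact 95% binomial interval 61.1 to 63.9%), against 45.6% of the sequence over 500 bp from start sites on the same 5 arms. Coding exons held 229 regions (4.69%, 4.11 to 5.32%), against 16.0% of that sequence. Sequence between genes held 24.9% of regions and 31.6% of sequence, 3′ UTRs held 4.99% and 5.09%, and 5′ UTRs held 1.39% and 0.700%. Intervals cover counting error only, since peaks of the same libraries are not replicates.

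Coding exons took a smaller share the higher the signal. Over 4 equal groups of the regions, from the lowest to the highest signal, the share was 7.61%, 6.55%, 3.03% and 1.55%. The intron share was 56.8%, 60.1%, 66.6% and 66.5%. Among weak peaks away from start sites, coding exons held 9.62% of those found in 1 replicate and 11.5% of those found in none, and among the 1158 thresholded peaks away from start sites 0.518%. The median pooled signal of regions in coding exons was 30.6, against 36.0 in introns. Median GC content was 54.2% at summits in coding exons and 37.8% in introns. The sets also differed in pooled signal. Its median was 35.1 in the regions, 22.7 in weak peaks found in 1 replicate, 19.6 in those found in none and 96.6 in the thresholded peaks. The differences between sets of peaks were not tested, and the parts of signal and base composition in them were not tested. The same limit holds wherever these sets stand side by side below.

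**Figure D2:**
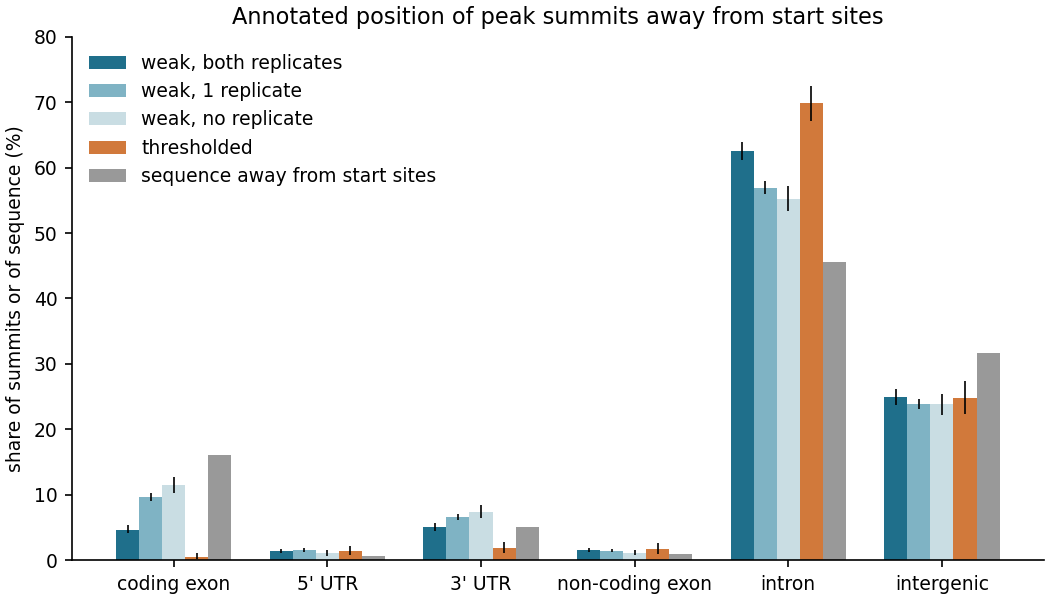
Share of summits in each annotated class (vertical, %), for weak reproducible regions, weak peaks found in 1 or no replicate and thresholded peaks, all away from start sites, with exact 95% binomial intervals; grey bars give the share of sequence. Introns hold 62.5% of the regions and 45.6% of the sequence, coding exons 4.69% and 16.0%.

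The regions lay a median of 2556 bp from the nearest start site, between 501 and 55062 bp, and 585 of them were over 10 kb away. The median was 2213.5 bp for thresholded peaks away from start sites, of which 105 of 1158 were over 10 kb away. A thresholded summit lay within 2 kb of 835 regions (17.1%, 16.0 to 18.2%), and 48.5% of regions were over 10 kb from any. The share within 2 kb was 13.1% for weak peaks found in 1 replicate and 11.7% for those found in none. Density over the sequence away from start sites was 47.3 regions per Mb on 2L, 46.0 on 3L, 41.4 on 3R, 41.1 on X and 37.7 on 2R. The order was X, 2L, 3L, 3R and 2R for the thresholded peaks, from 11.4 to 8.33 per Mb. Annotated transposable elements held 20 of the summits (0.409%), while they make up 6.52% of that sequence. The share was 0.570% for weak peaks found in 1 replicate and 0.663% for those found in none. Soft-masked bases, which mark repeats, made up a median of 18.4% of the windows at summits. They were 20.9% of all bases of that sequence, which is a total and not a median, so these values are unlike measures. The share of transposable element sequence to which reads map uniquely was not analysed here, so 6.52% is a share of all sequence and not of the sequence in which a peak could be called.

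Long genes held many of the regions. Of 13865 protein-coding genes on the 5 arms, 1750 (12.6%) held at least 1 region between gene start and gene end, and 167 held 5 or more. The share of genes with a region was 1.30% at lengths up to 2 kb, 47.7% at 10 to 20 kb and 69.9% above 100 kb. Per 100 kb of gene sequence away from start sites the density was 4.66 in all genes, with its highest value, 6.97, in genes of 10 to 20 kb and 2.37 in those above 100 kb. Thresholded peaks away from start sites lay in 594 genes (4.28%), of which 441 (74.2%) also held a weak region. Those 441 are 25.2% of the genes with a weak region. The share of genes with such a thresholded peak also rose with length, from 0.0921% up to 2 kb to 42.2% above 100 kb. The part of gene length in the overlap was not tested.

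The 10 genes with most regions encode proteins of several kinds, among them receptors, transcription regulators and an RNA regulator. The gene kirre (chrX:2740384-3134532), for an adhesion protein of muscle founder cells, held 20, all in introns. Their signals ran from 9.72 to 39.1 in replicate 2, with a median of 23.8, and from 10.7 to 39.4 in replicate 4, with a median of 20.8. Eip75B (chr3L:17950953-18064696), for an ecdysone-induced nuclear receptor, held 19, with replicate medians of 19.3 and 19.1. In bun (chr2L:12455540-12546611) there were 17, all in introns, with medians of 18.3 and 18.9. The Wingless receptor gene fz2 (chr3L:19140975-19235373) also held 17, with no thresholded peak away from start sites. In fz2 the signals ran from 9.65 to 28.9 in replicate 2, with a median of 17.3, and from 11.04 to 31.3 in replicate 4, with a median of 17.7. Thus fz2 held many weak regions and none of the thresholded peaks away from start sites. By contrast sbb, for a transcriptional corepressor, held 15 weak regions and 8 such peaks. Thresholded peaks near start sites were not counted here. Among all protein-coding genes of 50 to 100 kb, 33.6% held a thresholded peak away from start sites. Of the 167 genes with 5 or more regions, 45 held none. The translational repressor gene pum held 16, and SKIP, for a protein that interacts with a potassium channel, held 12. In hth, for a homeodomain partner of Hox proteins, there were 15, and their median signal was 28.1 in replicate 2 and 17.2 in replicate 4. The gene shn (chr2R:11159086-11217394), for a zinc finger factor of Dpp signalling, held 15, with replicate medians of 21.0 and 20.8. The gene rdx (chr3R:13967061-14032057), for a ubiquitin ligase adaptor that acts on Ci, held 14. Density was highest among the 10 in shn, at 28.4 regions per 100 kb, and lowest in kirre, at 5.50.

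**Figure D3:**
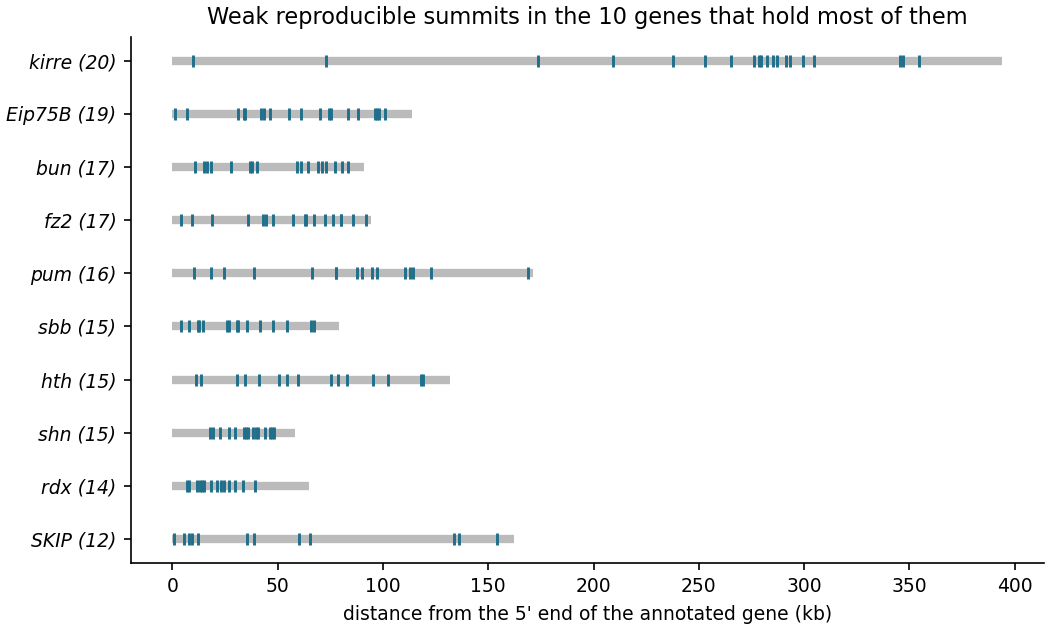
Position of each weak reproducible summit (tick) along the 10 genes that hold most, as distance from the 5′ end of the annotated gene (horizontal, kb); grey bars are the genes and numbers in brackets count the summits. In kirre, summits crowd within a stretch late in the gene, while in shn all 15 lie in its middle part.

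Regions lay both alone and in groups. Chained at steps of at most 5 kb, the 4887 regions formed 3171 runs. Of these, 2187 held a single region (44.8% of regions) and 394 held 3 or more, with 1520 regions (31.1%) in the latter. Runs among other sets of peaks, or those to be had from the density of regions alone, were not analysed. The longest run had 15 regions in shn, between 11176914 and 11207335 of 2R, with pooled signals of 26.4 to 62.1. The next had 14, between 1636164 and 1657388 of 2L, across the annotated 5′ end of chinmo, a BTB zinc finger gene, with signals of 26.6 to 53.6. Of its regions 7 lay within chinmo, which held no thresholded peak away from start sites. The same held for 45 of the 167 genes with 5 or more regions. A run of 13 lay in rdx, between 13998439 and 14025223 of 3R. Another, of 10 regions, lay between 9342671 and 9358002 of 3R, with CG43675 and drn as host genes and signals of 25.01 to 65.0. A run of 9 lay in the last part of fz and downstream of it, and 8 regions between 11398778 and 11415578 of 3L lay in no gene.

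Genes of cell signalling had the densest regions among the gene lists. Of 37 signal transduction genes, 21 held a region, with 13.6 regions per 100 kb (exact 95% Poisson interval 10.9 to 16.8), against 4.66 over all protein-coding genes. Members with most were shn, pnt with 9, and puc, for the phosphatase that limits JNK signalling, with 8. The density in puc was 55.6 per 100 kb, from 14.39 kb of gene sequence away from start sites. Of 40 ligand and receptor genes, 25 held a region, at 10.7 per 100 kb. They included fz2, its relative fz with 12 and the insulin receptor gene InR with 7. These lists were chosen with earlier results of these data known, some share genes, and their densities were not tested. Median gene length was 13.7 kb and 10.5 kb in the lists. Of all protein-coding genes of 10 to 20 kb, 47.7% held a region, at 6.97 per 100 kb.

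Hormone response and patterning genes held regions at 5.07 to 8.55 per 100 kb. Of 14 ecdysone response genes 8 held a region (8.39 per 100 kb), led by Eip75B and then by ftz-f1 and Eip74EF with 8 each. Of 27 segmentation genes 9 held one (8.55 per 100 kb), with 5 in nkd, a Wingless antagonist gene, 4 in the Hedgehog receptor gene ptc and 2 in bowl. Of 24 dorsoventral genes 7 held one (7.25 per 100 kb), with 8 in ush, a GATA cofactor gene, 4 in sog, a BMP antagonist gene, and 3 in vn, an EGF receptor ligand gene. Hox genes held regions in 6 of 8, at 5.07 per 100 kb, with 4 each in Antp and lab and 3 in Abd-B. In ush there were also 8 thresholded peaks away from start sites, and in sog, lab and Abd-B none. Such a peak lay in 16.5% of all protein-coding genes of 10 to 20 kb and in 25.4% of those of 20 to 50 kb.

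Tissue genes were mixed. Of 18 muscle genes 10 held a region (6.80 per 100 kb), with 7 in how, 6 in Mef2, a muscle transcription factor gene, and 5 in the tropomyosin gene Tm1. Of 18 tracheal, gut and salivary gland genes 10 held one (6.87 per 100 kb), with 6 in bnl, 3 in ths and 2 in pyr, which all encode fibroblast growth factors. Median gene length was 12.9 kb and 12.2 kb in these lists, and all protein-coding genes of 10 to 20 kb had 6.97 regions per 100 kb. Of 39 transcription factor genes of late embryos 18 held one (5.73 per 100 kb), with hth, pnt and lola on top. Chromatin and insulator genes held regions in 6 of 30 (7.01 per 100 kb), with 5 each in osa and trx and 4 in Mi-2.

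Neural genes stood near or below the density of all genes. Axon guidance and cell recognition genes held regions in 17 of 25, at 5.29 per 100 kb, led by kirre, Sema1a with 11 and Ten-a with 9. Neither Sema1a nor Ten-a held a thresholded peak away from start sites. Among all protein-coding genes above 100 kb, 42.2% held one. Of 23 neural fate genes 5 held a region (3.71 per 100 kb), with 5 in numb, 3 in elav and 2 in brat. Of 24 ion channel and synapse genes 10 held one (2.28 per 100 kb, 1.39 to 3.52), with 4 each in dlg1 and Sh and 3 in Ca-beta.

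Lists of short genes held few regions in number, and their densities spread widely. A single region lay in the 179 odorant, gustatory and ionotropic receptor genes, in Ir68a (0.286 per 100 kb, 0.00725 to 1.60). Cuticle protein genes held 3 in 95 genes (3.16% of genes, 2.65 per 100 kb, 0.547 to 7.76), in Cpr49Ae, Cpr78Cb and Cpr47Ee. Cytosolic ribosomal protein genes held 4 in 91 genes (4.40%), RpS26, RpL18 and RpL9 among them. Their density was 9.54 per 100 kb, with an interval of 2.60 to 24.4, since little of these short genes lies away from start sites. Of all protein-coding genes of up to 2 kb, 1.30% held a region, at 2.34 per 100 kb.

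**Figure D4:**
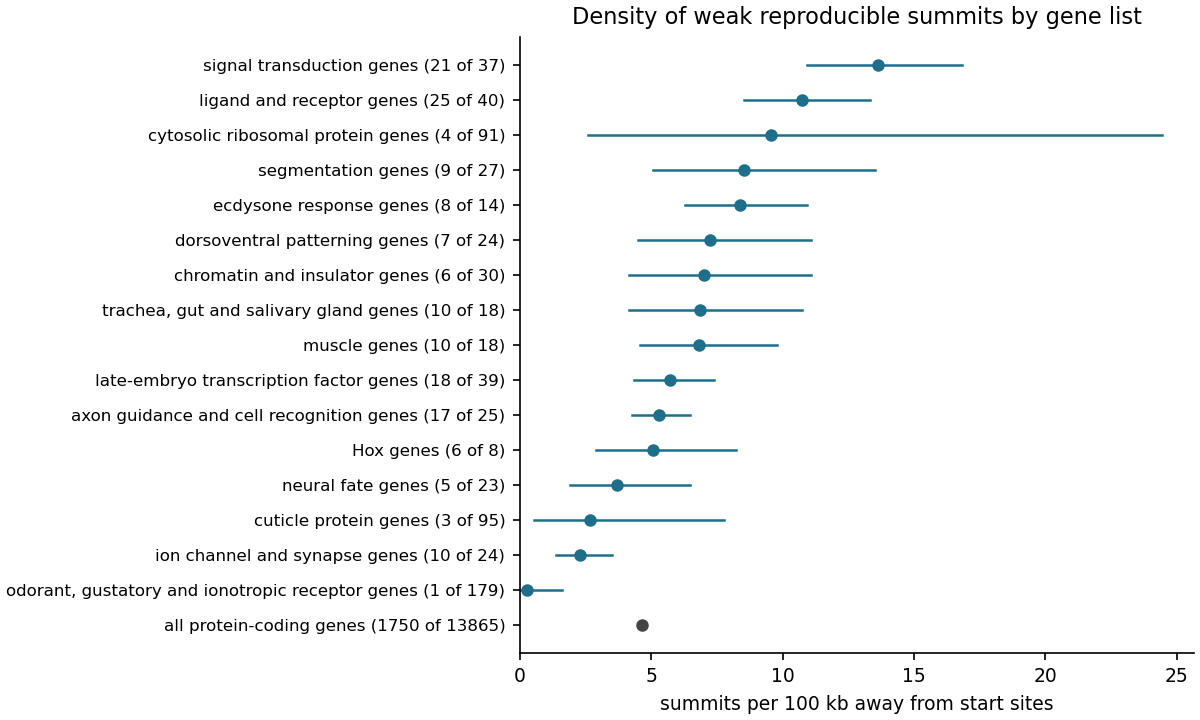
Weak reproducible summits per 100 kb of gene sequence over 500 bp from start sites (horizontal) for 16 gene lists and all protein-coding genes, with exact 95% Poisson intervals for counting error; brackets give genes with a summit of genes found. Signal transduction genes are at 13.6 and chemosensory receptor genes at 0.286, with 4.66 over all genes.

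Sequence was not used to choose the regions, so motifs at summits were tested against flanks. The window around each summit, reaching 100 bp to either side, was compared with a window of the same length centred 1 kb away on a randomly drawn side. The exact 2-sided binomial test used the regions in which only one of both windows held the motif, with Benjamini-Hochberg adjustment over 34 motifs and a threshold of 0.05. Regions are not replicates of the embryos, and 13 had a window that overlapped that of another. Of the 34 motifs 5 (14.7%) were higher at summits and 2 (5.88%) were lower. Log2 odds below compare summit with flank, with 0.5 added to each count.

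CACTG was the motif with the smallest p. It was in 1861 of 4887 summit windows (38.1%, 36.7 to 39.5%) and in 1426 flank windows (29.2%), with log2 odds of 0.58 and an adjusted p of 3.81e-19. Over all 568758 windows of the same length away from start sites the share was 29.3%. It was on the list because earlier results of these data had shown it at thresholded peaks, so its call is not independent support for it. The share was 50.4% at thresholded peaks away from start sites (29.1% in their flanks). It was 32.7% at weak peaks found in 1 replicate (28.9%, adjusted p of 2.67e-08 in the same exact test). At those found in none it was 29.5% (28.8%, adjusted p of 0.965 in that test). These sets were not tested against each other. In the regions, the share over the 4 groups from lowest to highest signal was 33.2%, 40.2%, 35.6% and 43.3%, so it did not rise at each step. It was 46.3% in coding exons, 41.1% between genes, 37.0% in introns and 28.7% in 3′ UTRs. Flank shares by class are not given here. Median GC content at summits was 54.2% in coding exons, 37.8% in introns and 35.8% in 3′ UTRs, so these shares do not measure enrichment by class.

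A GATA site and a forkhead site were also higher at summits. The GATA site, TGATAAG, was in 268 summit windows (5.48%) and 162 flank windows (3.31%), with log2 odds of 0.76 and an adjusted p of 2.10e-06 in the exact binomial test; 2.57% of all windows held it. Its share was 6.15% in introns (188 of 3055), 4.43% between genes and 2.62% in coding exons. The forkhead site, TGTTTAC, was in 311 summit windows (6.36%) and 214 flank windows (4.38%), with log2 odds of 0.57, an adjusted p of 1.23e-04 and a share of 3.69% in all windows. Its share was 7.20% in introns, 4.68% between genes and 1.75% in coding exons. As for CACTG, the shares of both sites by class are not set against flanks of the same class. For weak reproducible peaks within 500 bp of start sites the GATA site was at 3.99% of summits and 3.96% of flanks, and the forkhead site at 7.14% and 4.27%. At thresholded peaks away from start sites the GATA site was at 6.13% and 4.23%, and the forkhead site at 7.43% and 4.92%. At weak peaks away from start sites found in 1 replicate they were at 4.04% and 3.58%, and at 5.56% and 4.47%. There the forkhead site passed, with an adjusted p of 0.00240 in the same exact test, and the GATA site did not, at 0.222. These sets were not tested against each other.

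A and T rich letters made up the other motifs called higher. TATAAA, the letters of a TATA box, was in 29.0% of summit windows and 23.9% of flanks, with log2 odds of 0.38 and an adjusted p of 3.36e-07. A run of 8 A was in 16.2% and 13.9%, with log2 odds of 0.26 and an adjusted p of 0.00735. At weak peaks away from start sites found in 1 replicate TATAAA was at 26.0% and 23.8%, and the run of A at 14.9% and 13.4%. Both passed there in the same exact test, with an adjusted p of 0.00240 and 0.00997. Median GC content was 38.3% at summits, 40.8% and 41.3% in the flanks and 42.2% over the arms. In the 1123 regions whose windows differed by at most 3 percentage points in GC, CACTG kept its call, with 39.0% at summits, 26.9% in flanks and an adjusted p of 4.95e-08. No other motif passed there: the GATA site was at 5.61% and 4.19%, the forkhead site at 5.79% and 4.54% and TATAAA at 28.3% and 25.6%, each with an adjusted p of 0.679. The run of A was at 15.9% and 16.6%. That setting was added after seeing the data and leaves out the other regions.

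Motifs lower at summits were the Bicoid site and the Mad site. The Bicoid site, TAATCC, was in 4.85% of summit windows and 6.67% of flanks, with log2 odds of -0.49 and an adjusted p of 0.00105. In the GC-matched regions it was at 4.54% and 6.59% and did not pass. The Mad site, GNCGNC, was in 31.4% and 34.7%, with log2 odds of -0.21 and an adjusted p of 0.00299, and without the call in the GC-matched regions, at 30.8% and 30.1%. The nuclear receptor element, AGGTCA, and the AP-1 site, TGANTCA, had log2 odds of -0.27 and -0.21 and did not pass. Among motifs of promoters, TATAAA was called higher, as given above, while the Dref site, the M1BP site and the initiator did not pass. The Dref site, TATCGATA, was in 0.532% of summits and 0.573% of flanks, whereas at weak reproducible peaks near start sites it was in 6.76% and 0.546%. The longer CAACACTG, which contains CACTG, was in 0.696% and 0.348% of the regions' windows, with an adjusted p of 0.100, and in 3.72% and 0.410% near start sites.

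**Figure D5:**
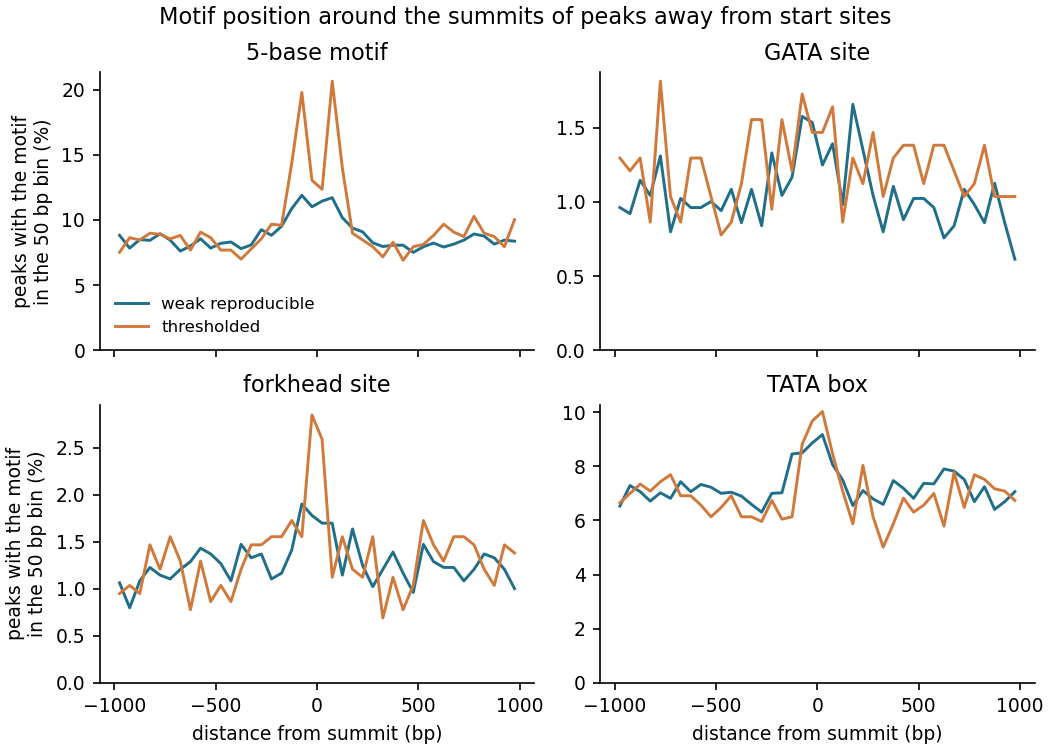
Share of peaks (vertical, %) with a motif in each 50 bp bin by distance from the summit (horizontal, bp), for weak reproducible regions and thresholded peaks away from start sites; the 5-base motif is CACTG. In the regions the 5-base motif is at 11.0 to 11.9% of peaks in the 4 bins within 100 bp of the summit and at 8.37% in the last bin.

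Position around the summit differed between the motifs. In the regions the share of peaks with CACTG in a 50 bp bin was flat over the 4 bins within 100 bp of the summit, whereas at thresholded peaks it was higher in the outer 2 of these bins, at 19.8% and 20.6%, than in the inner 2, of which the lower had 12.3%. The forkhead site was in 1.70 to 1.90% of regions in each of these bins and in 1.00 to 1.06% in the bins farthest out. Its bin at 175 bp to the right had 1.64%. For TATAAA the share was 8.06 to 9.17% within 100 bp of the summit, against 6.53 and 7.06% farthest out. Its bins at 125 bp to the left and 625 bp to the right had 8.45% and 7.90%. The GATA site was in 1.25 to 1.58% of regions in the 4 bins within 100 bp of the summit. Its highest bin was farther out, at 175 bp to the right (1.66%), and single bins up to 775 bp away reached 1.31%. Over the 4 groups of regions from lowest to highest signal, the GATA site was in 4.66%, 5.48%, 6.14% and 5.65% of summit windows and the forkhead site in 5.48%, 6.63%, 6.06% and 7.28%. The counting intervals of the lowest and highest groups overlap for both motifs. For CACTG those intervals were 30.6 to 35.9% and 40.5 to 46.1%, but its share did not rise at each step. The groups were split by signal, which the rule used, so they are a description and were not tested against each other.

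All 8-base sequences were tested in the same way, with both strands merged. Of 32400 sequences found in at least 10 windows, 72 (0.222%) were higher at summits and 10 (0.0309%) lower. Of the 72, 13 contained CACTG, 6 contained 4 of its 5 letters and 31 were made of at least 7 letters A or T. Of the 10 lower sequences, 7 held 5 or more G and C, such as CGGCGGAG at 0.164% of summits and 0.757% of flanks. Overlapping sequences share copies, so these counts are not of separate motifs. In the GC-matched regions no 8-base sequence passed in either direction, so each of the calls that follow is lost there. With windows reaching 50 bp to either side, 9 were higher and 0 lower. Without replicate 4, which chooses other regions, 142 were higher and 29 lower, and without replicate 2 they were 54 and 2.

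The 5 highest by log2 odds all hold CACT or CACTG on one strand. TAGTGTCA had log2 odds of 3.04 from 20 summits and 2 flanks, close to the threshold with an adjusted p of 0.0491 in the exact binomial test. CAGTGTAG had 2.36, from 63 and 12. AGTGTACC had 2.12, from 32 and 7, and CCAGTGTA had 2.07, from 64 and 15. CACTGAGA had 1.93 and the smallest p of all, at 132 summits (2.70%) and 35 flanks (0.716%), with an adjusted p of 1.08e-10; 0.630% of all windows held it. At thresholded peaks away from start sites it was at 5.70% of summits and 0.173% of flanks. The kirre sequence printed above holds CACTGAGA, and the next 4 regions by rank are shown here with these 8 bases in capitals.

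Between genes near lncRNA:CR45250, chr3L:11334275-11334304, minus strand: tgatggctatgCACTGAGAtacaaaataga
Between genes near CG17350, chr2L:19377558-19377587, plus strand: cgctgcaactaCACTGAGAgaaatttagcc
Intron of drongo, chr2L:846417-846446, minus strand: aatgtattccaCACTGAGAgaaaagttgat
Between genes near mat, chr3L:904468-904497, plus strand: agcatgaaggaCACTGAGAgaaattggcag

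In these sequences at least 3 A in a row stand a few bases after CACTG, and such runs were counted over all regions with CACTG. Read on the strand of CACTG, taking the copy nearest to the window centre, A was at 42.7% of summit copies at the sixth base after it and at 29.7% of flank copies. At least 3 A in a row stood within the 12 bases after CACTG in 720 of 1861 summit copies (38.7%) and in 370 of 1426 flank copies (25.9%). On the other side, within 12 bases before CACTG, the shares were 18.7% and 19.8%. TA stood directly before it in 224 of the summit copies and 80 (5.61%) of the flank copies. At thresholded peaks away from start sites 42.5% of summit and 27.9% of flank copies had the run of A after CACTG, and 13.5% and 5.34% had TA before it. Windows at summits also held less G and C than flanks, by the medians given above. This context was chosen after seeing the sequences, and neither it nor the part of base composition in it was tested.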

How the data were processed

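Per the labels, sonication of embryo chromatin gave a size range of 200 to 800 bp. The authors deposited dm6 and dm3 peak lists; the dm6 lists were used (1 per replicate, 1 pooled, 1 kept at a threshold on the irreproducible discovery rate, which compares peak ranks between replicates; per the deposited text records). Column 7 is the deposited signal of the peak caller, on a scale that is not stated, and column 9 the deposited −log10 q value. The aligner and caller are not stated, and the control was not used here. The files give no counts, so depth is unknown.

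Members, motifs and gene lists were chosen with earlier results of these data known. Start sites and classes came from Ensembl release 115 (BDGP6, transposable elements left out), and sequence from the RefSeq dm6 genome, whose chromosome lengths hold every peak. A summit took the first fitting class of coding exon, 5′ UTR, 3′ UTR, other exon, intron and intergenic. Coordinates are 1-based. Named regions, genes, motifs and sequences followed a rule: the 10 regions with the best worse replicate rank, the 10 genes with most regions, up to 3 genes per list, by log2 odds past the threshold the top 5 motifs and top 5 8-base sequences, and the 3 lowest motifs, and the 3 peaks on either side of the signal threshold. CACTG sequences followed it too; the Mad, Dref, CAACACTG and CGGCGGAG values and the CACTGAGA sequences were named outside it.

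Of the 34 motifs searched on both strands, some overlap: CACTG lies within CAACACTG and shares letters, read on the other strand, with the initiator, and the GAGA repeat contains the GAGA site. Those not spelled out in the results, none of which passed, had the following letters: the M1BP site was GGTCACACT, the initiator TCAGT, the GAGA site GAGAG, the GAGA repeat GAGAGAGA, the Zelda site CAGGTAG, the Twist site CACATG, the proneural site CAGCTG, the Snail site CAGGTG, the CTCF site AGGNGGCGC, the homeodomain site TAATTA, the Caudal site TTTATG, the CRE site TGACGTCA, the Tinman site CACTTGA, the Pho core GCCAT, the STAT site TTCNNNGAA, the Pangolin site ATCAAAG, the Scalloped site TGGAATG, the Su(H) site GTGGGAA, the Grainyhead site AACNGGTT, the Runt site AACCACA, the heat shock element GAANNTTC, the CA repeat CACACACA and the AT repeat ATATATAT. Python 3.11.15, numpy 2.4.6, scipy 1.17.1 and pandas 2.3.3 were used, and the tests were checked on simulated data.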

Additional observations from a re-analysis of the deposited data

How the results depend on the processing

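No paired analysis was possible because there is 1 group of samples. Besides the main setting, 12 others were tried, and 2 more were added after seeing the data. A summit match within 50 bp chose 3115 regions, and without 1 replicate 10235 or 10418. The intron share was 64.5% with start sites over 1000 bp away, 59.9% with over 250 bp, 66.6% among regions at or above the median signal, and 58.2 to 60.9% without 1 replicate. The share within 2 kb of a thresholded summit was 14.7% with start sites over 1000 bp away, 18.2% among regions at or above the median signal and 14.8 to 15.2% without 1 replicate. The median distance to a start site was 3446.5 bp and 2061 bp with limits of 1000 and 250 bp, which the limits themselves set.

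The count of motifs higher at summits stayed within 1.5 times of 5 in all 12 settings, and fell to 1 in regions with GC-matched windows. CACTG, the GATA site, the forkhead site and TATAAA passed in 12 of 12 settings, the run of A and the Bicoid site in 11 and the Mad site in 10. The initiator, not called in the main setting, passed in 6. Motifs lower at summits numbered 1 with a 50 bp match, 1 with windows reaching 50 bp to either side, 0 in GC-matched regions and 1 to 3 without 1 replicate. For 8-base sequences higher at summits (72), the count was 23 with a 50 bp match, 30 at or above the median signal, 9 with windows reaching 50 bp to either side, 116 with flanks 2000 bp away, 0 in GC-matched regions, 38 in windows with at most 50% soft-masked bases and 54 to 142 without 1 replicate. For those lower (10), it was 3 with a 50 bp match, 4 with start sites over 1000 bp away, 0 at or above the median signal, 0 with windows reaching 50 bp to either side, 6 with the opposite flank, 5 with the summits of replicate 4, 0 in GC-matched regions, 5 in the soft-mask setting and 2 to 29 without 1 replicate. The 50 bp match, median-signal and GC-matched settings hold fewer regions and the short windows fewer bases by construction; the cause of the changed counts was not tested. Depth is unknown, and the number of regions limits what rare sequences can show.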

Other observations

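A group of 8-base sequences without CACTG was also higher at summits. AAAGTATG was in 124 summit windows (2.54%) and 43 flank windows (0.880%), with log2 odds of 1.54 and an adjusted p of 2.22e-06 over 32400 sequences in the exact binomial test, and 1.24% of all windows held it. AAGTATGC, which overlaps it, was in 2.25% and 0.859%, with an adjusted p of 9.65e-05. Neither passed in the GC-matched regions, where no 8-base sequence did. In all, 5 of the 72 sequences higher at summits contained AGTATG or GTATGC on one strand. At thresholded peaks away from start sites AAAGTATG was in 2.94% of summits and 0.864% of flanks, with an adjusted p of 0.0786.

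CACTG was in 46.3% (41.7 to 51.0%) of the 460 regions whose rank was over 3 times better in replicate 4, in 37.6% (32.3 to 43.1%) of the 322 with a rank over 3 times better in replicate 2, and in 37.2% of the other 4105. These subsets were chosen by signal and were not tested.

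Chromosome 4, left out by the rule, held 55 further weak peaks that met its other conditions.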
